A study of Homo sapiens with 12 samples.

Results

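KMT2 methyltransferases and their partners in the MLL complex were followed by ATAC-Seq in HEK293T cells that carried the fusion genes of the translocation t(4;11). The 10 genes were KMT2A, KMT2B, KMT2C and KMT2D, MEN1 and PSIP1, WDR5, ASH2L and RBBP5, and TASP1, each taken by its symbol from a table of counts for 52889 gene entries. All 10 were among the 27579 entries that were deep enough to be tested. HEK293T is a human embryonic kidney cell line. The study compared 4 groups of cells with 3 biological replicates each. Mock cells carried the empty inducible vector pSBTet-GP. The d0 cells were a line with stably integrated, constitutively expressed MLL-AF4. The d3 cells were d0 cells transfected transiently with an inducible AF4-MLL vector and treated with 1 µg/ml doxycycline for 48 h, so they expressed both fusion genes. The methods of the study also name blasticidin, given over the same 48 h. The d28 cells had been grown for another 25 days after AF4-MLL was switched off, and still expressed MLL-AF4. The labels give d28 cells the same genotype as d0 cells, so the earlier AF4-MLL pulse is known from the methods of the study. All groups other than Mock thus shared MLL-AF4, and no group of these 12 samples carried AF4-MLL alone. When Mock cells were taken is not given in the sources used here.

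MLL, the product of KMT2A, methylates lysine 4 of histone H3 (H3K4) and keeps developmental genes active. KMT2B is its closest relative and acts mostly at promoters, whereas KMT2C and KMT2D act mostly at enhancers. Each enzyme works on a core of WDR5, RBBP5, ASH2L and DPY30, which raises its activity. The N-terminal part of MLL binds menin (MEN1) and, through it, LEDGF (PSIP1), which hold the complex on chromatin. The protease Taspase1 (TASP1) cuts MLL into an N-terminal and a C-terminal fragment that stay together. In t(4;11) leukaemia the MLL-AF4 fusion keeps the part that binds menin and LEDGF, and the reciprocal AF4-MLL fusion keeps the Taspase1 cleavage site and the catalytic domain.

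The value followed here is a gene-level ATAC count, the number of sequenced DNA fragments that the authors assigned to a gene after cutting of open chromatin by the transposase. A normalized count is the count scaled for depth, so that samples can be compared. A change in a few cells and a smaller change in every cell cannot be told apart in such bulk counts. Both fusion vectors hold KMT2A sequence and AFF1 (AF4) sequence, and reads from a vector and reads from the gene cannot be told apart in a gene-level count.

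Promoters of 3 of the 4 KMT2 genes are shown because KMT2A was the gene that passed the test, KMT2B is its closest relative, and KMT2C came nearest to the threshold among the other genes. Each sequence is the 250 bases before the start of the gene (RefSeq, GRCh38.p14), written 5′ to 3′ on the strand of the gene. Capitals mark GC boxes, the motif GGGCGG or its reverse complement CCGCCC, which may overlap each other. The windows are chr11:118436242-118436491 on the plus strand for KMT2A, chr19:35717753-35718002 on the plus strand for KMT2B and chr7:152436004-152436253 on the minus strand for KMT2C.
KMT2A: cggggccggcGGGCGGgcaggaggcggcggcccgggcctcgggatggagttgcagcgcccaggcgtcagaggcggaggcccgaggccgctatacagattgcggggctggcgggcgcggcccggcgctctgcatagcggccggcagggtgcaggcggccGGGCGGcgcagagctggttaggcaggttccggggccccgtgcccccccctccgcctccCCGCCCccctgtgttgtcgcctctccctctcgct
KMT2B: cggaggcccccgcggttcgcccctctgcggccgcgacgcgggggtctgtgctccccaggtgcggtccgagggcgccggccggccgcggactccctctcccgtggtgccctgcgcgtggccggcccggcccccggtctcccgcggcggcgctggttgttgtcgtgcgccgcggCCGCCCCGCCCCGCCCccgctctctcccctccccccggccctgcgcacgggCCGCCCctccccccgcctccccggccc
KMT2C: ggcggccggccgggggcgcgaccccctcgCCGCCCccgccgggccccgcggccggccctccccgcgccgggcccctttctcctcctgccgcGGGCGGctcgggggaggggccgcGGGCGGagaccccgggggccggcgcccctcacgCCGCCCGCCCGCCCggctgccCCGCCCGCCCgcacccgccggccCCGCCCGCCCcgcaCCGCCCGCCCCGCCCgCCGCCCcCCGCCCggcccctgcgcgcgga

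All of these windows were rich in G and C. The KMT2A window had a GC content of 78.4% with 31 CpG dinucleotides and 3 GC boxes. The KMT2B window reached 84.4% with 40 CpG and 4 GC boxes, and the KMT2C window 92.0% with 48 CpG and 15 GC boxes. Across 34959 promoter windows of the same length the median was 58.4% GC and 11 CpG, and 42.7% of windows held a GC box. The KMT2D window had 65.6% GC, 23 CpG and 2 GC boxes, and it also held an E box (CACGTG), which was present in 6.35% of all windows. A CCAAT box (CCAAT or ATTGG), found in 32.0% of all windows, occurred in neither strand of the 4 KMT2 windows. Among the partner genes the windows ran from 46.8% GC for RBBP5 to 83.6% for 1 of 4 alternative WDR5 starts. In all, 9 of the 10 genes had 14 windows in the reference table, and ASH2L had none there. These letters describe the windows and say nothing of which factors bind there.

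In the 12 samples the table summed to between 353430 and 3539937 counts, and between 186 and 747 of these fell on the 10 genes. Mitochondrially encoded genes took 26.8% ± 0.321 (SD, n = 3) of the counts in Mock, 44.0% ± 1.83 in d0, 39.4% ± 5.94 in d3 and 65.5% ± 2.61 in d28, which left 257857 to 1116385 counts per sample for all other genes. RBBP5 in Mock replicate 3, with 2 reads, was the single value of the 10 genes below a floor of 3 counts. None of 5 genes chosen as HEK293T markers (KRT8, KRT18, VIM, NEFM, PAX2) and none of 3 blood cell markers (PTPRC, CD3E, SPI1) passed the test in any comparison. Only 0.37% to 1.45% of all tested genes passed there. In d28 against d3 the 3 blood markers were lower, with log2 fold changes of -0.76 (PTPRC), -1.83 (CD3E) and -0.57 (SPI1). Each had an unadjusted edgeR p below 0.05, as did 8.83% of all tested genes and 0 of the 5 HEK293T markers. CD3E was at 0 to 7 reads, but SPI1 (20.1 ± 1.99 normalized counts in Mock, SD, n = 3) had a level like that of PAX2 (15.7 ± 3.38), so these gene-level counts did not mark the cell type.

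KMT2A was the only one of the 10 genes that passed the test. Its normalized ATAC count rose 2.08-fold in d3 and 2.64-fold in d28 over Mock, and 1.94-fold in d28 over d0. None of the other 9 genes passed the test in any of the 6 comparisons of groups. The test was the quasi-likelihood F test of edgeR on all 12 samples, with Benjamini-Hochberg adjustment over all tested genes and an adjusted p below 0.05 as the threshold. In d0 against Mock, where 0.609% of all tested genes passed, 0 of the 10 genes did, and 2 had an unadjusted p below 0.05 (9.65% of all genes). In d3 against Mock 1 of 10 passed, beside 1.27% of all genes, and in d28 against Mock again 1 of 10, beside 1.45%. In d3 against d0 0 of 10 passed, beside 0.91% of all genes, and 2 of 10 had an unadjusted p below 0.05, beside 11.4% of all genes. In d28 against d0 1 of 10 passed, beside 1.35%. In d28 against d3 0 of 10 passed, beside 0.37%, and 1 of 10 had an unadjusted p below 0.05, beside 8.83% of all genes. With 1 gene or none passing out of 10, these shares describe KMT2A and not the group of genes. DESeq2 called 0 of 10 genes in d0 against Mock, in d3 against d0 and in d28 against d3. It called 0.363%, 0.163% and 0.225% of all tested genes in these comparisons. The median log2 fold change of the 10 genes was 0.08 in d0, 0.15 in d3 and 0.0081 in d28 against Mock, beside -0.0017, 0.03 and 0.03 over all tested genes. Comparisons that share the Mock or the d0 samples are not independent of each other.

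**Figure D1:**
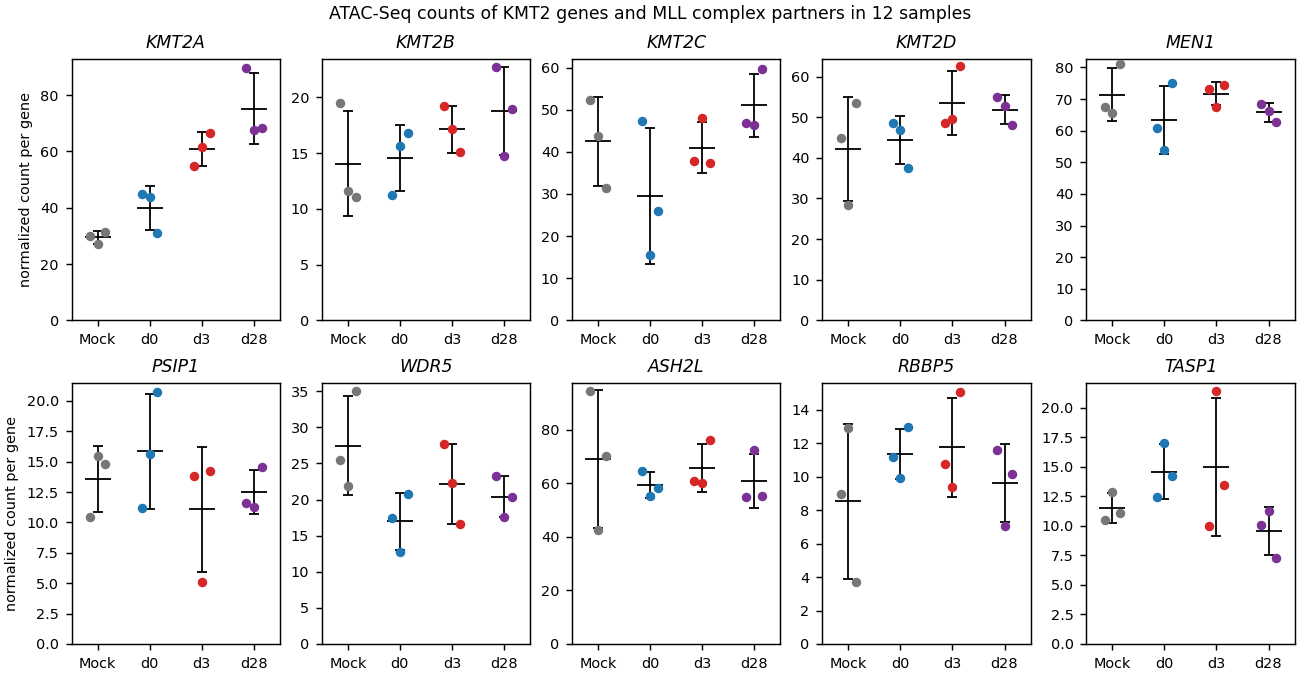
Normalized ATAC-Seq counts (vertical axis, each panel with its own scale from 0) of the 10 genes in Mock, d0, d3 and d28 cells. Points are single samples, and lines and bars give the mean and SD of 3 replicates. The KMT2A means rise from 29.5 in Mock to 75.2 in d28, whereas no difference between groups in the other panels passed the test.

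KMT2A (ENSG00000118058, chromosome 11, 118436492 to 118526832 in GRCh38.p14) encodes the enzyme that is split in the translocation. In Mock cells its normalized counts were 29.9, 27.1 and 31.4, from 20, 21 and 17 reads. In d0 cells they were 44.8, 44.0 and 31.1. In d3 cells they were 54.7, 61.6 and 66.6, and in d28 cells 89.7, 67.5 and 68.4. The d0 samples thus reached down to the Mock samples, all d3 samples lay above all d0 samples, and all d28 samples lay above all d3 samples, the last by a narrow gap.

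The group means of KMT2A were 29.5 ± 2.19 in Mock, 39.9 ± 7.69 in d0, 61.0 ± 5.98 in d3 and 75.2 ± 12.6 in d28 (SD, n = 3 each). On the log2 scale the difference from Mock was 0.45 ± 0.25 (SE) in d0, with a 95% interval from -0.04 to 0.94 and an edgeR adjusted p of 0.577. It was 1.06 ± 0.21 in d3 (edgeR adjusted p = 0.000212) and 1.40 ± 0.20 in d28 (edgeR adjusted p = 9.63e-10). From d0 to d28 it rose by 0.96 ± 0.18 (edgeR adjusted p = 2.94e-05). The steps between neighbouring groups did not pass the test. The step from d0 to d3 was 0.61, with an interval from 0.24 to 0.97 (edgeR adjusted p = 0.0828), and that from d3 to d28 was 0.35, with an interval from 0.07 to 0.63 (edgeR adjusted p = 0.414). The order Mock, d0, d3, d28 was therefore resolved for d3 and d28 against Mock and for d28 against d0.

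Depth and the mitochondrial share differed between the groups in which KMT2A differed. With counts scaled only to the library total, mitochondrial reads included, the median of all tested genes fell by 1.31 on the log2 scale in d28 against Mock, and KMT2A stood at 0.02 (edgeR adjusted p = 0.944). Under the same scaling it was 0.70 in d3 against Mock (edgeR adjusted p = 0.0802) and 0.02 in d28 against d0 (edgeR adjusted p = 0.939), so none of the 3 calls remained. With counts scaled to the reads outside mitochondrially encoded genes, all 3 calls remained, at 0.97 (edgeR adjusted p = 0.00142), 1.14 (edgeR adjusted p = 6.52e-06) and 0.75 (edgeR adjusted p = 0.00319).

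A measure that needs no scaling is the share of KMT2A among the raw counts of the 10 genes. In Mock it was 8.23%, 9.59% and 9.14%, and in d0 13.6%, 15.3% and 9.92%. In d3 it was 15.3%, 17.0% and 17.0%, and in d28 22.8%, 18.4% and 18.7%. All d0, d3 and d28 samples thus lay above all Mock samples, d0 replicate 3 by a narrow gap (9.92% against 9.59%). The d0 and d3 samples overlapped, with d0 replicate 2 at 15.347% and d3 replicate 1 at 15.335%. All d28 samples lay above all d3 samples. The shallowest sample, Mock replicate 3, had 17 of 186 counts on KMT2A, with a 95% Wilson interval from 5.78% to 14.1%, and the deepest, d28 replicate 1, had 170 of 747 with an interval from 19.9% to 25.9%. The mean share was 8.99% ± 0.692 in Mock, 12.9% ± 2.77 in d0, 16.5% ± 0.969 in d3 and 19.96% ± 2.43 in d28 (SD, n = 3). Among the 4 KMT2 genes alone it was 23.2% ± 2.38, 31.2% ± 4.31, 35.3% ± 1.30 and 38.1% ± 3.48 in the same order. Intervals and floors cover counting error only.

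**Figure D2:**
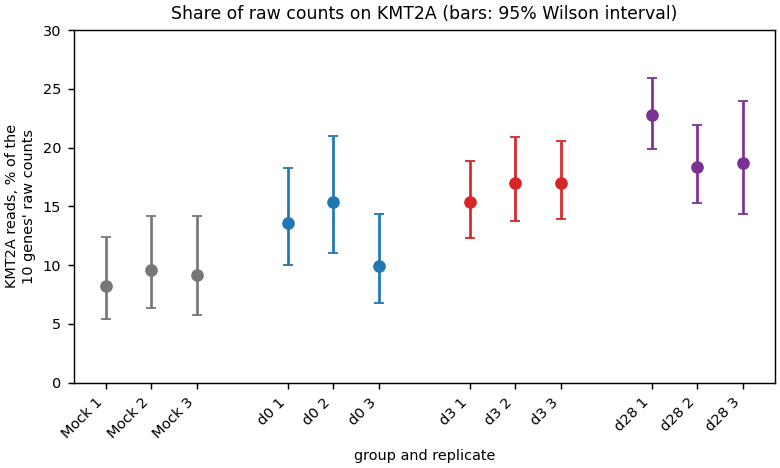
Share of KMT2A (vertical axis, percent) in the raw counts of the 10 genes for each of the 12 samples, with 95% Wilson intervals for counting error. The Mock samples lie between 8.23% and 9.59% and the d28 samples between 18.4% and 22.8%.

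The genes next to KMT2A on chromosome 11 were looked at to see whether a whole stretch of the chromosome moved with it. Of the 20 nearest tested genes, 10 on either side, 0 passed the test in any of the 6 comparisons (edgeR, adjustment over all tested genes). Only 0.37% to 1.45% of all tested genes passed in these comparisons, so 0 of 20 does not show that the stretch stayed unchanged. Some neighbours also had few reads, such as CD3E with a mean normalized count of 2.08 and CD3G with 3.07. Their median log2 fold change against Mock was 0.08 in d0, 0.14 in d3 and 0.06 in d28, with values from -1.07 to 1.03 in d3 and from -1.60 to 0.98 in d28. In d28 KMT2A, at 1.40, lay above all 20. In d3 it lay at 1.06 and ARCN1, which encodes the delta subunit of the COPI vesicle coat, at 1.03 ± 0.37 (SE, edgeR adjusted p = 0.189). The pair on the centromeric side, ATP5MG, a subunit of mitochondrial ATP synthase, and UBE4A, a ubiquitin ligase, had 0.24 and 0.13 in d3 and 0.41 and 0.98 in d28. On the other side TTC36 had 0.07 in d3 and -0.21 in d28, and TMEM25 had 0.60 and 0.81. In d28 against d0 these 4 genes had 0.65, 0.75, -0.13 and 0.09, beside 0.96 for KMT2A.

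Set against the summed raw counts of these 20 neighbours, KMT2A had 10.4, 8.33 and 10.49 counts per 100 in Mock and 13.4, 15.3 and 10.4 in d0. It had 17.2, 17.96 and 19.4 in d3 and 27.2, 21.0 and 20.7 in d28. All d28 samples lay above all d3 samples, and all d3 samples above all d0 and Mock samples, whereas d0 and Mock overlapped. This ratio is also free of any scaling between samples.

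**Figure D3:**
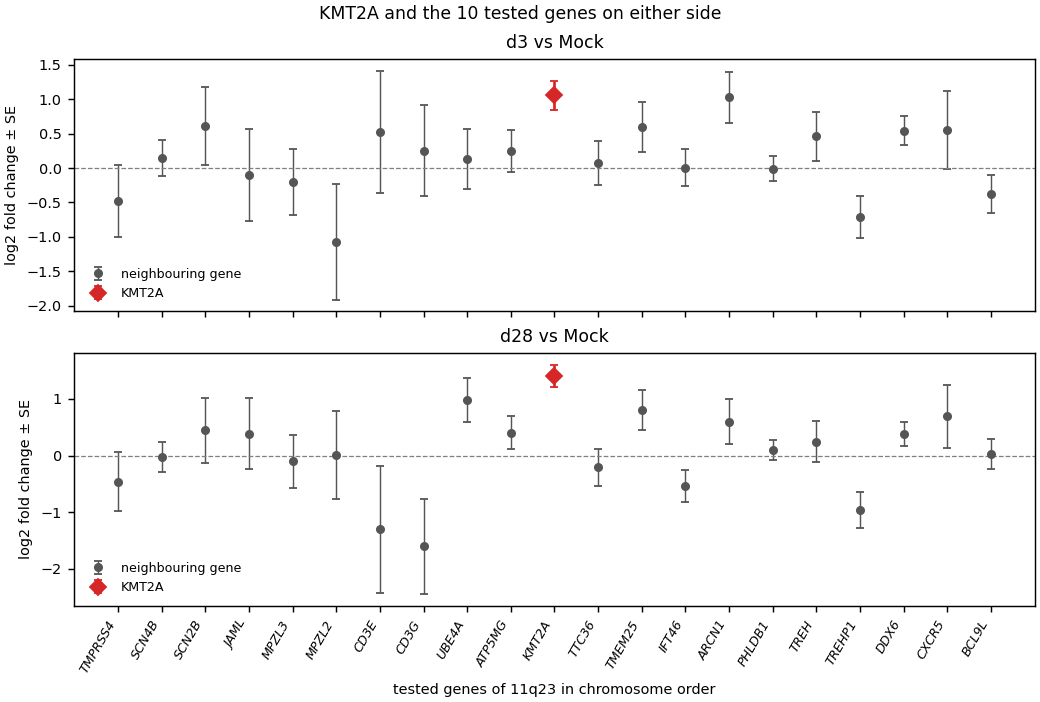
Log2 fold change (vertical axis, with SE) of KMT2A (diamond) and of the 10 tested genes on either side in chromosome order (horizontal axis), for d3 against Mock (top) and d28 against Mock (bottom). KMT2A stands at 1.06 and 1.40, above the neighbours, of which ARCN1 comes closest in d3 and UBE4A in d28.

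AFF1, the gene of the fusion partner AF4, is the other gene whose sequence is present in both vectors. Its normalized counts were 40.4, 58.0 and 59.1 in Mock, 62.2, 79.4 and 66.0 in d0, 63.1, 53.9 and 65.8 in d3 and 62.8, 63.3 and 68.4 in d28. The d0 and d28 samples lay above the Mock samples, and the d3 samples overlapped them. Its log2 fold change over Mock was 0.39 in d0, 0.22 in d3 and 0.29 in d28, and it passed the test in none of them (edgeR adjusted p = 0.491, 0.702 and 0.523). In d0 the interval ran from 0.015 to 0.77, above 0, with an unadjusted edgeR p of 0.0415. Of all tested genes 9.65% had an unadjusted p below 0.05 there. The part of vector DNA in the KMT2A result was not tested.

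KMT2C, an enhancer methyltransferase (ENSG00000055609, chromosome 7, 152134925 to 152436003), came closest to the threshold among the other genes. Its normalized counts were 52.4, 43.8 and 31.4 in Mock, 47.3, 15.6 and 25.9 in d0, 37.7, 47.9 and 37.2 in d3 and 47.0, 46.4 and 59.7 in d28. The d0 samples spread widely, from 11 to 38 reads, and d0 replicate 1 lay within the range of d28. In d28 against d0 the log2 fold change was 0.70 ± 0.21 (SE), with an interval from 0.29 to 1.11 and an edgeR adjusted p of 0.0526. Without d0 replicate 1 it was 1.24 (edgeR adjusted p = 0.00126), and without d0 replicate 2 it was 0.42 (edgeR adjusted p = 0.476). With every library of both groups kept, KMT2C passed under another filter on low counts, filterByExpr (edgeR adjusted p = 0.0409). It also passed with the 6 samples of both groups alone (edgeR adjusted p = 0.0456) and with TMM scaling factors over every entry (edgeR adjusted p = 0.0295). The side of the threshold on which KMT2C fell thus depended on single libraries and on the settings. Against Mock the values were -0.52 in d0, -0.08 in d3 and 0.19 in d28, and none passed. Parts of KMT2C have near-identical copies elsewhere in the genome, so its counts depend on how the authors treated reads with several matches, which is not given in the sources used here.

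KMT2D, the other enhancer enzyme (chromosome 12, 49018978 to 49060794), had 44.9, 28.4 and 53.5 normalized counts in Mock and 48.5, 46.8 and 37.6 in d0. It had 48.5, 49.6 and 62.6 in d3 and 54.9, 52.7 and 48.1 in d28. All groups overlapped the wide range of Mock. Its log2 fold change over Mock was 0.39 in d3, with an interval from -0.00047 to 0.78, and 0.37 in d28, with an interval from -0.02 to 0.75 (edgeR adjusted p = 0.443 and 0.440).

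KMT2B (chromosome 19, 35718003 to 35738878) was less covered, with 6 to 43 reads per sample. Its normalized counts averaged 14.05 ± 4.70 in Mock, 14.5 ± 2.96 in d0, 17.1 ± 2.10 in d3 and 18.8 ± 3.96 in d28 (SD, n = 3), with overlap of all groups. The log2 fold change in d28 against Mock was 0.44, with an interval from -0.20 to 1.08, so a change of the size seen for KMT2A (1.40) lay outside that interval. In d3 against Mock it was 0.28, from -0.38 to 0.94, and in d0 0.04, from -0.71 to 0.78.

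Of the proteins that hold MLL on chromatin, menin had the steadiest gene. MEN1 (chromosome 11, 64803516 to 64811294) had 67.4, 65.8 and 81.2 normalized counts in Mock, 61.0, 53.9 and 75.1 in d0, 73.1, 67.6 and 74.5 in d3 and 68.6, 66.1 and 62.6 in d28. The 4 groups overlapped. Its log2 fold changes over Mock were -0.15 in d0, 0.02 in d3 and -0.09 in d28, and the interval in d28 ran from -0.41 to 0.24. MEN1 lies on the same chromosome as KMT2A. Of the 20 tested genes around it, 0 passed in any comparison, beside 0.37% to 1.45% of all tested genes.

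PSIP1, which encodes LEDGF (chromosome 9, 15464066 to 15510970), had few reads, 6 to 22 per sample. Its normalized counts averaged 13.6 ± 2.70 in Mock, 15.8 ± 4.77 in d0, 11.1 ± 5.16 in d3 and 12.5 ± 1.82 in d28 (SD, n = 3). Replicate 2 of d3 stood lowest at 5.14. The log2 fold changes over Mock were 0.21, -0.27 and -0.17, with intervals as wide as -1.004 to 0.46 in d3. PSIP1 overlaps SNAPC3 at its end, and reads there could belong to either gene.

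Among the core subunits, WDR5, which binds the histone tail and joins the enzyme to the core (chromosome 9, 134135199 to 134159968), was the only one with an unadjusted p below 0.05 against Mock. It had 25.4, 21.9 and 35.1 normalized counts in Mock and 17.4, 12.8 and 20.7 in d0, where all samples lay below all Mock samples. In d3 it had 27.7, 22.3 and 16.6 and in d28 23.2, 17.6 and 20.4, and both groups overlapped Mock. The log2 fold change in d0 was -0.64 ± 0.31 (SE), with an interval from -1.26 to -0.03 and an edgeR adjusted p of 0.483.

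ASH2L, the subunit that with DPY30 raises the activity of the enzyme, lies on chromosome 8 and was among the best covered, with 33 to 104 reads. Its Mock samples differed most among themselves, at 94.3, 42.5 and 70.1 normalized counts, and enclosed the d0 (64.7, 55.3 and 58.3), d3 (60.8, 59.9 and 76.1) and d28 samples (54.9, 72.4 and 55.3). The log2 fold changes over Mock were -0.18, -0.04 and -0.14, with intervals of d3 from -0.38 to 0.29 and of d28 from -0.48 to 0.19. Pseudogenes of ASH2L are listed in the same table, so its reads may have been split among copies.

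RBBP5, a scaffold of the core (chromosome 1, 205086142 to 205121978), had 2 to 22 reads per sample. Its normalized counts averaged 8.52 ± 4.62 in Mock, 11.4 ± 1.52 in d0, 11.8 ± 2.94 in d3 and 9.61 ± 2.34 in d28 (SD, n = 3). The log2 fold changes of 0.33, 0.38 and 0.10 had intervals that reached from -0.56 to 1.22 in d0, from -0.43 to 1.19 in d3 and from -0.73 to 0.94 in d28. The d3 interval thus holds both no change and a rise like that of KMT2A (1.06).

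TASP1, the protease that cuts MLL and AF4-MLL (chromosome 20, 13104772 to 13638932), had 5 to 25 reads per sample. Its normalized counts averaged 11.5 ± 1.26 in Mock, 14.6 ± 2.31 in d0, 14.96 ± 5.84 in d3 and 9.52 ± 2.03 in d28 (SD, n = 3). The log2 fold changes over Mock were 0.32, 0.35 and -0.21, with intervals from -0.47 to 1.11, from -0.38 to 1.07 and from -0.99 to 0.56. In d28 against d3 it had the lowest value of the 10 genes, -0.56, with an interval from -1.19 to 0.06 (edgeR adjusted p = 0.621). SPTLC3, ISM1, ISM1-AS1 and the pseudogene GAPDHP2 overlap the long TASP1 gene.

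**Figure D4:**
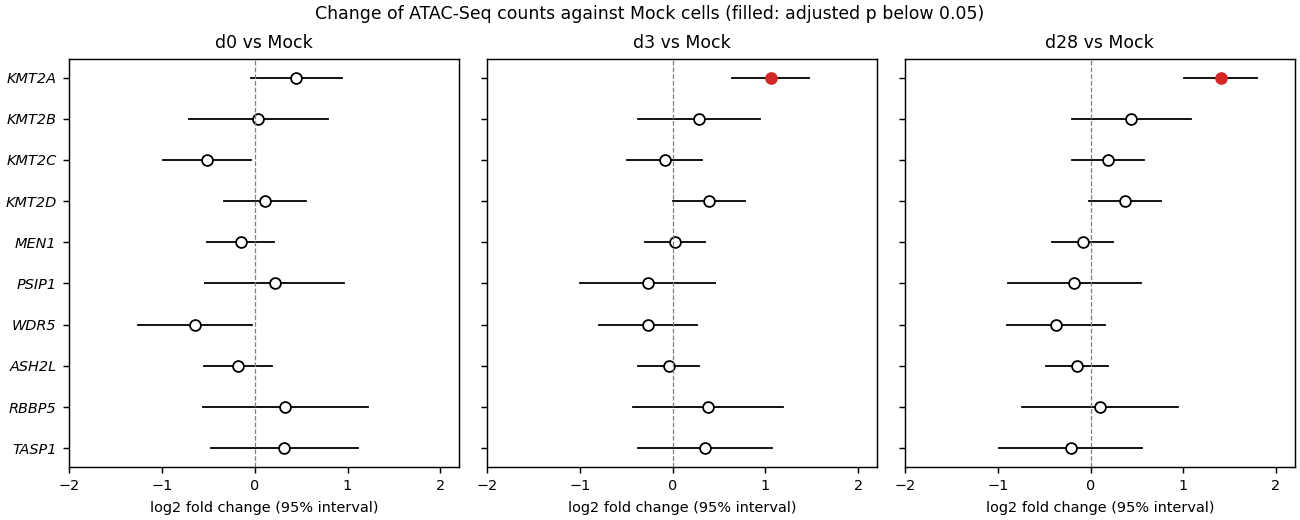
Log2 fold change (horizontal axis, with 95% interval) of the 10 genes in d0, d3 and d28 against Mock. Filled points passed the edgeR test at an adjusted p below 0.05, which was KMT2A in d3 (1.06) and d28 (1.40). The widest intervals belong to RBBP5, PSIP1, KMT2B and TASP1, the genes with few reads.

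Among themselves the genes differed more in level than any of them changed. Per kb of the gene from start to end in RefSeq, the mean of the 4 groups was highest for MEN1 with 8.75 normalized counts per kb, followed by ASH2L with 1.84, KMT2D with 1.15, WDR5 with 0.879, KMT2B with 0.773 and KMT2A with 0.569. RBBP5 had 0.288, PSIP1 0.282, KMT2C 0.136 and TASP1 0.0236 normalized counts per kb. MEN1 is the shortest of these genes with 7.779 kb and TASP1 the longest with 534.161 kb, and the interval counted per gene is not given in the sources used here. In Mock the level per kb of WDR5 (1.11 ± 0.275) and that of KMT2D (1.01 ± 0.306) did not differ beyond their spread, nor did those of KMT2A (0.326 ± 0.0243), PSIP1 (0.289 ± 0.0576) and RBBP5 (0.238 ± 0.129; SD, n = 3). In d28 KMT2A reached 0.833 ± 0.139 per kb and stood beside KMT2B (0.900 ± 0.190) and WDR5 (0.823 ± 0.114) instead.

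The wider pathway was followed in 26 genes in 4 lists. These were 13 other subunits of the H3K4 methyltransferase complexes, 5 H3K4 demethylases, 3 other substrates of Taspase1 and 5 proteins that bind MLL or menin. All 26 were tested in each comparison, and 1 passed in 1 comparison, d3 against d0. Of all tested genes 0.91% passed there, and 0.37% to 1.45% across the 6 comparisons. None of the 26 passed against Mock. There 1 gene in d0, 2 in d3 and 3 in d28 had an unadjusted p below 0.05, beside 9.65%, 11.3% and 12.5% of all tested genes. These counts were near or below the share over all genes. Their median log2 fold change over Mock was 0.07 in d0, 0.15 in d3 and 0.22 in d28, with 16, 19 and 19 of the 26 values above 0.

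HCFC1, a chromatin-bound cofactor that joins the KMT2A, KMT2B and SETD1 complexes, was the gene that passed, in d3 against d0. It had 70.4, 90.2 and 62.8 normalized counts in Mock, 68.4, 69.5 and 62.2 in d0, 96.2, 106 and 120.5 in d3 and 80.2, 87.9 and 81.5 in d28. All d3 samples lay above all others. The log2 fold change of d3 over d0 was 0.69 ± 0.15 (SE, edgeR adjusted p = 0.00285). It missed the threshold with DESeq2 (0.65, adjusted p = 0.0578) and without d3 replicate 3 (0.59, edgeR adjusted p = 0.0574). Against Mock it was 0.50 in d3 (edgeR adjusted p = 0.0649) and 0.13 in d28 (edgeR adjusted p = 0.786).

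HCFC1 apart, none of the 13 other subunits passed in any comparison, beside 0.37% to 1.45% of all tested genes. In d28 against d0 4 of 13, HCFC1 (0.32) included, had an unadjusted p below 0.05, beside 12.6% of all tested genes, and the median was 0.23. The other 3 were PAGR1 (0.42), found with KMT2C and KMT2D, SETD1A (0.43), the catalytic subunit of a sister complex, and NCOA6 (0.84), a coactivator found with KMT2C and KMT2D (edgeR adjusted p of at least 0.200 for all 13). In each other comparison 1 of the 13 had an unadjusted p below 0.05, or 2 in d3 against d0. The share of all tested genes there was 8.83% to 12.5%. DPY30, the remaining core subunit, had 0.28 in d28 against Mock and 0.03 in d3 against d0. None of the 5 demethylases, which remove the mark, passed in any comparison, beside 0.37% to 1.45% of all tested genes. The demethylases had medians of 0.17, 0.04 and 0.23 against Mock in d0, d3 and d28. GTF2A1L, which encodes a germ-cell form of the transcription factor TFIIA that Taspase1 cuts, had the highest value of the 26 genes in d28 against Mock, 1.17 ± 0.41 (SE, edgeR adjusted p = 0.131), from 3 to 7 reads in Mock and 13 to 26 in d28.

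**Figure D5:**
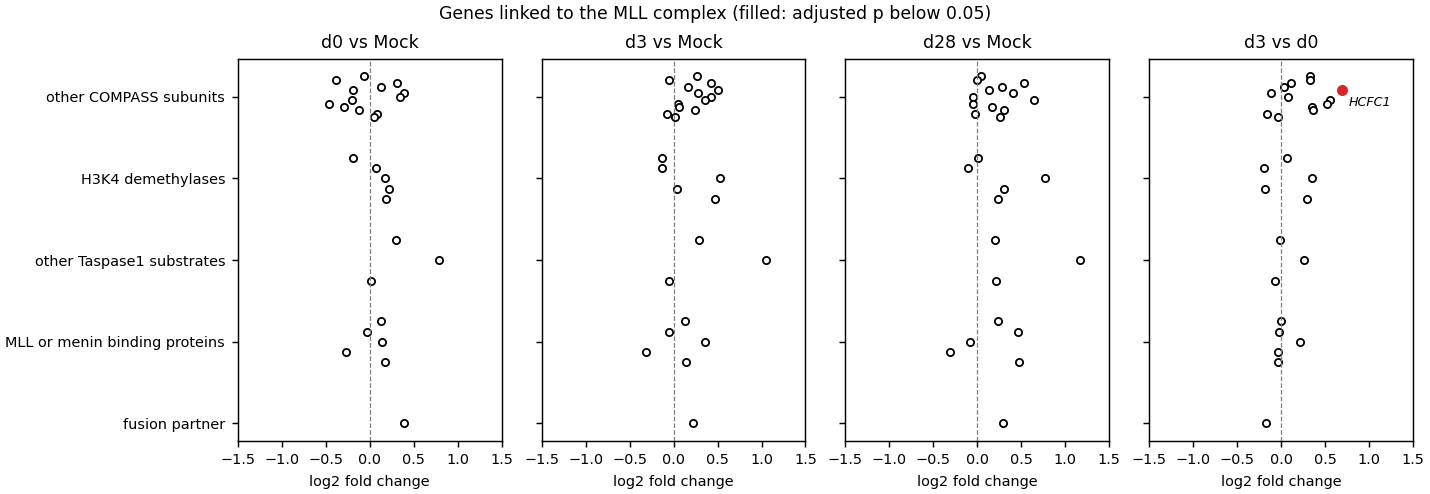
Log2 fold change (horizontal axis) of 26 genes linked to the MLL complex, by list, and of the fusion partner AFF1, in 4 comparisons. Each point is a gene. The filled point, HCFC1 in d3 against d0 (0.69), is the one that passed the edgeR test at an adjusted p below 0.05.

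The genes whose pattern over the 3 comparisons with Mock was most like that of KMT2A were found by the root mean square of the differences in log2 fold change, among the 8329 other genes whose normalized counts averaged 20 or more. They were B2M, the light chain of class I MHC (0.31, 1.22 and 1.26 in d0, d3 and d28, distance 0.148), the antisense RNA gene NR2F2-AS1 (distance 0.166), DNAJC15 (0.178), RMDN3 (0.178) and DDR1-DT (0.179). Each had a lower mean count than KMT2A. In d28 all 5 passed the edgeR test against Mock, with adjusted p = 0.00375 for B2M, 0.0195 for NR2F2-AS1, 0.00663 for DNAJC15, 6.81e-05 for RMDN3 and 8.98e-05 for DDR1-DT. In d3 B2M (edgeR adjusted p = 0.00851) and RMDN3 (edgeR adjusted p = 1.69e-05) passed. Of the 4 placed in RefSeq, B2M, NR2F2-AS1 and RMDN3 lay on chromosome 15 and DNAJC15 on chromosome 13. Whether a stretch of chromosome moved with any of these 5 genes was not tested. Their likeness is a description over 3 comparisons that share the Mock samples. The genes were picked by these same fold changes against Mock, so their adjusted p values are no separate evidence.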

How the data were processed

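The series holds 12 ATAC-Seq samples of HEK293T cells, 4 groups of 3 biological replicates, grouped by the labels; the AF4-MLL pulse before d28 was taken from the methods of the study. The authors deposited a single table of raw counts per gene, as whole numbers. Per the labels, reads were processed with bcl2fastq, Bowtie2 and HTSeq on GRCh38. Versions, annotation, counted interval, read shift for the transposase and removal of duplicates are not given in the sources used here; without these, reads at overlapping genes or copies cannot be assigned, and promoter and gene body signal cannot be separated. All sample columns were used. Total counts ranged from 353430 to 3539937 per sample, which sets the precision of genes with few reads.

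The 10 genes and all lists were chosen with earlier results of these data known. Entries whose normalized counts averaged above 2 in any group entered the test (27579) with TMM factors over these genes and the quasi-likelihood F test of edgeR 4.0.16 in R 4.3.3, all 12 samples in 1 fit without covariates, and Benjamini-Hochberg adjustment over all tested genes. SE and 95% intervals came from the same fit. Chromosomes, neighbours and sequences came from RefSeq (GRCh38.p14), where 33200 of 52889 symbols matched. Named were the 10 genes, linked genes that passed the test in any comparison and AFF1, the nearest neighbours of KMT2A on either side, and the 5 genes most like KMT2A. PAGR1, SETD1A, NCOA6, DPY30, GTF2A1L, ARCN1 and the cell markers were named after their values were seen. 1 cell marker is not reported here. Replicate pairs of a group differed more than sampling noise (chi-square per degree of freedom 1.06 to 1.38). The procedure was tested on simulated data in which only genes with a mean normalized count of 20 or more were changed. That run does not tell how often a change would be found in genes with fewer counts, such as RBBP5, TASP1, PSIP1 and KMT2B. Alternatives were DESeq2 1.42.0, other scalings, filters and sample sets, a replicate block and leaving out each replicate. Figures were drawn with matplotlib 3.10.9.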

Additional observations from a re-analysis of the deposited data

Results flagged for a closer look

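2 genes had an effect over Mock that differed between groups by a direct test of the groups. Of all tested genes 1.35% passed in d28 against d0 and 0.91% in d3 against d0. KMT2A was 0.45 above Mock in d0 and 1.40 in d28 on the log2 scale, and the difference between d28 and d0 was 0.96 ± 0.18 (SE, edgeR adjusted p = 2.94e-05), with all 3 d28 samples above all 3 d0 samples. With library totals alone as the scaling it was 0.02 (edgeR adjusted p = 0.939). HCFC1 was at -0.19 in d0 and 0.50 in d3 against Mock, and the difference between d3 and d0 was 0.69 ± 0.15 (SE, edgeR adjusted p = 0.00285), with all 3 d3 samples above all 3 d0 samples. HCFC1 missed the threshold with DESeq2 (adjusted p = 0.0578) and without d3 replicate 3 (edgeR adjusted p = 0.0574). Both differences use groups that share the line with MLL-AF4, and their causes were not tested.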

How the results depend on the processing

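Scaling to the library total alone, which moved the median of all tested genes by -0.44 (d0), -0.33 (d3) and -1.31 (d28) against Mock, by -0.87 in d28 against d0 and by -0.98 in d28 against d3 (log2), called 2, 0, 9, 6 and 10 of the 10 genes in these comparisons, beside 5.60%, 2.84%, 64.1%, 45.4% and 58.8% of all tested genes. With it the sign turned against Mock in d0 for KMT2A (-0.0017), KMT2B (-0.41), KMT2D (-0.34), PSIP1 (-0.23), RBBP5 (-0.11) and TASP1 (-0.12), in d3 for KMT2B (-0.085), MEN1 (-0.34) and TASP1 (-0.0086), and in d28 for KMT2B (-0.93), KMT2C (-1.15), KMT2D (-1.01) and RBBP5 (-1.26). The sign also turned in d28 against d3 for KMT2A (-0.68) and KMT2C (-0.70) and in d28 against d0 for KMT2C (-0.18). In d28 against Mock, d0 and d3, with the same shares of all genes, it called 13, 8 and 14 of the 20 neighbours of KMT2A (1 each in d0 and d3 against Mock), 12, 8 and 12 of the 13 other subunits (2 in d0 against Mock), 4, 3 and 5 of the 5 demethylases, 4, 3 and 4 of the 5 proteins that bind MLL or menin, and 2, 2 and 3 of the 3 Taspase1 substrates. Scaling to reads outside mitochondrially encoded genes turned KMT2B in d0 (-0.024), MEN1 in d3 (-0.060) and, in d28, KMT2C (-0.074) and RBBP5 (-0.16). It called 1 of the 20 neighbours of KMT2A in d28 against Mock, beside 4.99% of all tested genes. In d28 against d3 it called 1 of the 13 other subunits, beside 2.16% of all tested genes. DESeq2 called 0 other subunits in d3 against d0, where it called 0.163% of all tested genes. It called 0 of the 20 neighbours in each comparison, beside 0.163% to 0.631% of all tested genes. MEN1 in d3 also turned with DESeq2 (-0.030), RLE factors (-0.027) and filterByExpr (-0.045). ASH2L in d3 turned without the filter on low counts (0.032) and with TMM factors over every entry (0.033), a setting chosen after seeing the data.

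KMT2A kept its 3 calls in 8 of 9 alternatives that keep all groups or all 6 samples compared, and in all fits that left out 1 replicate (log2 0.98 to 1.13 in d3 and 1.22 to 1.51 in d28 against Mock, 0.76 to 1.07 in d28 against d0). TMM factors over every entry also called KMT2A in d3 against d0 (0.67, edgeR adjusted p = 0.0356). There 1 of 10 genes passed, beside 1.24% of all tested genes. In d28 against d0 2 of 10 genes, KMT2A and KMT2C, passed in 3 alternatives that kept every replicate of both groups. These were filterByExpr, the 6 samples of both groups alone and TMM factors over every entry. They called 3.58%, 1.74% and 1.41% of all tested genes in that order. Leaving out single replicates gave 1 to 2 of 10 genes, beside 0.613% to 1.06% of all tested genes. Leaving out 1 replicate turned signs against Mock for ASH2L (-0.47 to 0.16 in d0, -0.31 to 0.30 in d3, -0.41 to 0.19 in d28), KMT2B (-0.10 to 0.36 in d0), KMT2C (-0.21 to 0.10 in d3), KMT2D (-0.12 to 0.30 in d0), MEN1 (-0.0058 to 0.13 in d3, -0.11 to 0.021 in d28), PSIP1 (-0.033 to 0.42 in d0, -0.48 to 0.047 in d3) and RBBP5 (-0.17 to 0.58 in d28). The cause of these turns was not tested.

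Replicate numbers did not pair the samples (mean correlation of deviations -0.07 to 0.03 over the comparisons, 8330 genes). With the replicate number as a block, KMT2A was 1.05 in d3 and 1.38 in d28 against Mock and 0.94 in d28 against d0, and the block changed no call among the 10 genes. Over all tested genes DESeq2 made 100, 144 and 174 calls in d0, d3 and d28 against Mock, 45 in d3 against d0, 135 in d28 against d0 and 62 in d28 against d3, where edgeR made 168, 351, 401, 251, 372 and 102. The split of all calls also moved: in d3 against Mock 230 were higher and 121 lower, but 395 and 93 with TMM factors over every entry, and in d28 against Mock 233 and 168, but 128 and 1247 when scaled to reads outside mitochondrially encoded genes. Exonic length in place of gene length was not run, since the reference table gives none. Genes with few reads (RBBP5, TASP1, PSIP1, KMT2B) limit the depth of any statement on them.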
